A study of Mus musculus with 9 samples.

Results

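The 10 genes Dbp, Tef, Hlf, Per1, Per2, Per3, Nr1d1, Nr1d2, Ciart and Bhlhe41 belong to the circadian clock or are driven directly by it. They were chosen by name, with earlier results of these data known, from the 18634 genes counted in single cells of the mouse brain. Brainstem, cortex and hypothalamus were taken at ZT12, the time of lights off, from male C57BL/6 mice of 9 to 11 weeks that had slept normally (NS), had been kept awake for 12 h (SD) or had been given recovery sleep after the same 12 h of deprivation (RS). The recovery lasted 24 h by the paper and by 1 label, and 12 h by another. Every library was made from dissociated tissue of 3 pooled mice, and with 9 libraries for 9 combinations of region and sleep group none has a replicate.

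In the clock, the transcription factors CLOCK and BMAL1 (encoded by Arntl) bind E-box sequences and activate the genes of their own repressors, among them the period and cryptochrome proteins, which then shut the activators off until the repressors decay. A second loop runs through the nuclear receptors NR1D1 and NR1D2, which repress Arntl through ROR elements, while DBP, TEF and HLF activate genes through D-boxes and carry the rhythm to the genes downstream. Many cell types of the brain run this loop, and several of its genes, Per1 and Per2 among them, are also known to respond to neuronal activity and to time awake.

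Numbers 1 to 9 follow the first appearance of each library code in the count table. Library 7 was identified as brainstem NS through a published list of cell barcodes, of which it held 1999, while each of the other libraries held 5 to 13. For the 8 remaining libraries neither region nor sleep group is known here, so values stand side by side and no sleep group is compared. The codes of libraries 1 to 3, of 4 to 6 and of 7 to 9 share a stem, whose meaning the sources used here do not state. A library held 2575 to 3916 cells and 1522766 to 5488950 UMIs, the molecular tags that count transcripts, with a median of 402 to 1055 UMIs per cell, and 549 of 29015 barcodes occurred in more than 1 library. Libraries 3, 6 and 9 held no cell under 500 UMIs, against 1735 of 2575 cells in library 1. Pituitary hormone, hemoglobin and mitochondrial genes together took 34.7% to 40.6% of the UMIs of libraries 4 to 6, and 7.47% to 17.1% in the others.

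The promoters of 9 of the 10 genes were available from RefSeq (GRCm38.p6), as 250 bases before and 50 after each start site, and 11 such windows covered them because Tef and Per1 have 2 each. They were searched on both strands for the E-box CACGTG, the D-box TTATGTAA or TTACGTAA and the ROR element TAGGTCA or TGGGTCA, letters that do not overlap between motifs. Ciart, which encodes a repressor of CLOCK and BMAL1, held 3 E-boxes within 300 bases, starting 116, 58 and 44 bases before the start site. Per3 held 2 D-boxes, 205 and 158 bases before it, and Bhlhe41 a single E-box. These 3 are shown with the matches in capitals, on the strand of the gene, for chr3:95882179-95882478, chr4:151044616-151044915 and chr6:145865371-145865670, all on the minus strand.
Ciart: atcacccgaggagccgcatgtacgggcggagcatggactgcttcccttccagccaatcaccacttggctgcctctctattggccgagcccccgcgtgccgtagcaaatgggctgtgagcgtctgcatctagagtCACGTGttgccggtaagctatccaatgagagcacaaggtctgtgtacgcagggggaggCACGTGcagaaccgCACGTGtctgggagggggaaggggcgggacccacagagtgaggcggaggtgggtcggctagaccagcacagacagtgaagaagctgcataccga
Per3: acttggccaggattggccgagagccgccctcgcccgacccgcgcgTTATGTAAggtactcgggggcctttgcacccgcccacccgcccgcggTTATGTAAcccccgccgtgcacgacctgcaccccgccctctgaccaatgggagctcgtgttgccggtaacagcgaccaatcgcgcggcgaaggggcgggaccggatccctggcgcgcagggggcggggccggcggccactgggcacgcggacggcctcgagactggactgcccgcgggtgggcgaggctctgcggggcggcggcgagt
Bhlhe41: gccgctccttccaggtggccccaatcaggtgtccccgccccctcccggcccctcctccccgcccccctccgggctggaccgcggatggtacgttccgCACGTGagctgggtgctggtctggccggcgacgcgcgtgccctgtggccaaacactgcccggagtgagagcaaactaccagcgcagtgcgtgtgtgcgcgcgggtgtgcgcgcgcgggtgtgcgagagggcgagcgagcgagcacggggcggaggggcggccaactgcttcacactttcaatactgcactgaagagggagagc

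An E-box was also found in the upstream window of Per1 and in both windows of Tef, so that 4 of the 9 genes had 1 or more. Of all 32851 promoters in the RefSeq table, 7.15% held the E-box, 1.06% the D-box and 6.45% the ROR element. The windows of Dbp, Hlf, Nr1d1 and Nr1d2 held none of these letters. The matches describe the sequence and do not show a bound site.

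**Figure D1:**
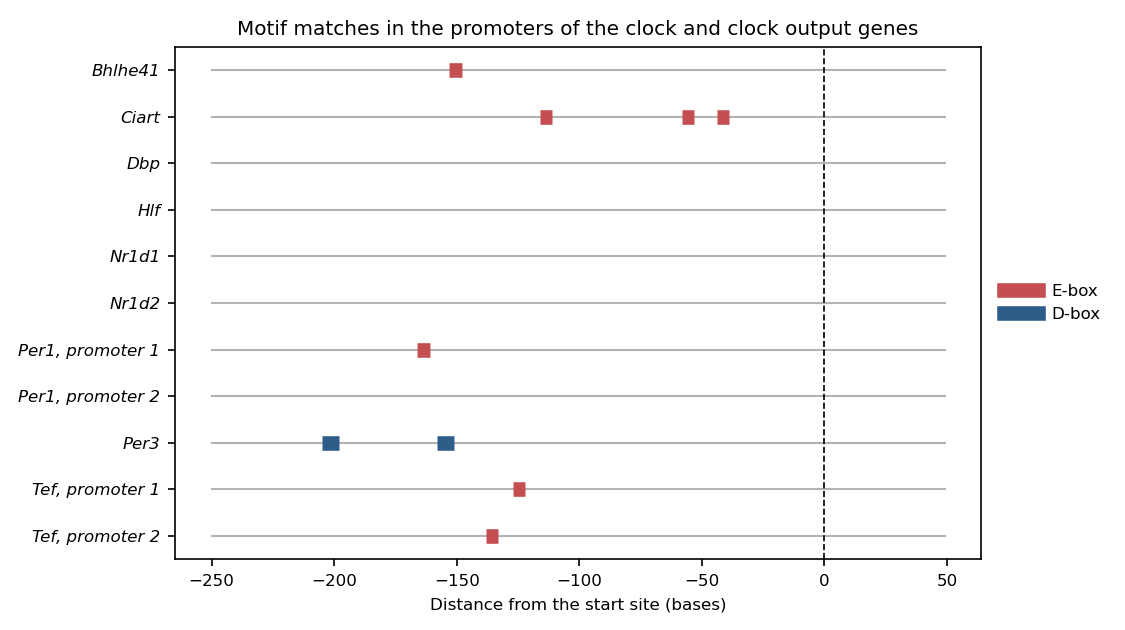
Positions of E-box (red) and D-box (blue) matches in the 11 promoter windows of 9 genes, in bases from the start site (dashed line). Ciart holds 3 E-boxes and Per3 holds 2 D-boxes.

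All 10 genes were counted in every library, sparsely: 52.8% of the 29571 cells carried no UMI of any of them, and 17.7% carried UMIs of 2 or more. Where a gene was found in a cell it was mostly a single UMI, from 78.8% of the positive cells for Bhlhe41 to 93.5% for Per2. Levels are therefore UMIs summed over cells and given as CPM (counts scaled to a common total), with exact 95% Poisson intervals that cover counting error only and not the variation between mice. They are compared within a gene. In summed UMIs, more RNA per cell and more cells of a type with the gene cannot be told apart.

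Among the PAR bZIP factors, which bind D-boxes, Dbp reached 284 CPM in library 1, 167 in library 2, 203 in library 3, 161 in library 4, 118 in library 5, 87.4 in library 6, 260.2 in library 7, 164 in library 8 and 143 in library 9. Libraries 1 and 7 stood above all others, and their intervals overlapped each other. Tef was at 216, 209.9 and 240.5 CPM in libraries 1 to 3 and at 62.9 to 94.4 CPM in libraries 4 to 9. Hlf was at 159, 215 and 223 CPM in libraries 1 to 3 and at 39.0 to 69.7 CPM in the others. For both genes, the intervals of libraries 1 to 3 lay above those of all 6 other libraries.

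Among the period genes, whose proteins repress CLOCK and BMAL1, Per1 followed the pattern of Tef and Hlf, with 97.8, 95.7 and 125 CPM in libraries 1 to 3 and 28.2 to 41.1 CPM in libraries 4 to 9. Per2 was at 33.1 to 41.1 CPM in libraries 1 to 3, at 13.7 to 16.1 CPM in libraries 4 to 6 and at 27.7 to 33.2 CPM in libraries 7 to 9, so that libraries 4 to 6 alone stood low. Per3 was at 154, 142, 128, 176, 119, 132, 172, 131 and 122 CPM in libraries 1 to 9. With all genes in the totals, this gene was the steadiest of the 10. With hormone, hemoglobin and mitochondrial genes left out of the totals, it ran from 138 CPM in library 3 to 270 CPM in library 4. Nr1d2 then ran from 63.9 CPM in library 1 to 104 CPM in library 9, so Per3 was no longer the steadiest. In the annotation, Per3 (chromosome 4, 151003652 to 151044665, minus strand) overlaps Camta1 on the same strand, and their reads cannot be told apart where they overlap.

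Of the nuclear receptors, Nr1d1 was at 78.1, 82.2 and 91.0 CPM in libraries 1 to 3 and at 27.9 to 44.5 CPM in the rest. Nr1d2 was highest in libraries 7 to 9, with 78.3, 79.6 and 86.6 CPM, and lowest in library 6 with 38.1 CPM. The 2 receptors therefore did not share their order over the libraries. Among the other repressors, Ciart was at 82.7, 59.5 and 65.6 CPM in libraries 1 to 3, at 22.7, 17.9 and 6.92 CPM in libraries 4 to 6 and at 43.6, 21.2 and 18.0 CPM in libraries 7 to 9. Bhlhe41 (DEC2), which binds E-boxes and in which a variant is known from families with short sleep, was at 78.1 to 112 CPM in libraries 1 to 6 and at 183, 213 and 177 CPM in libraries 7 to 9, with no overlap of intervals between these sets.

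**Figure D2:**
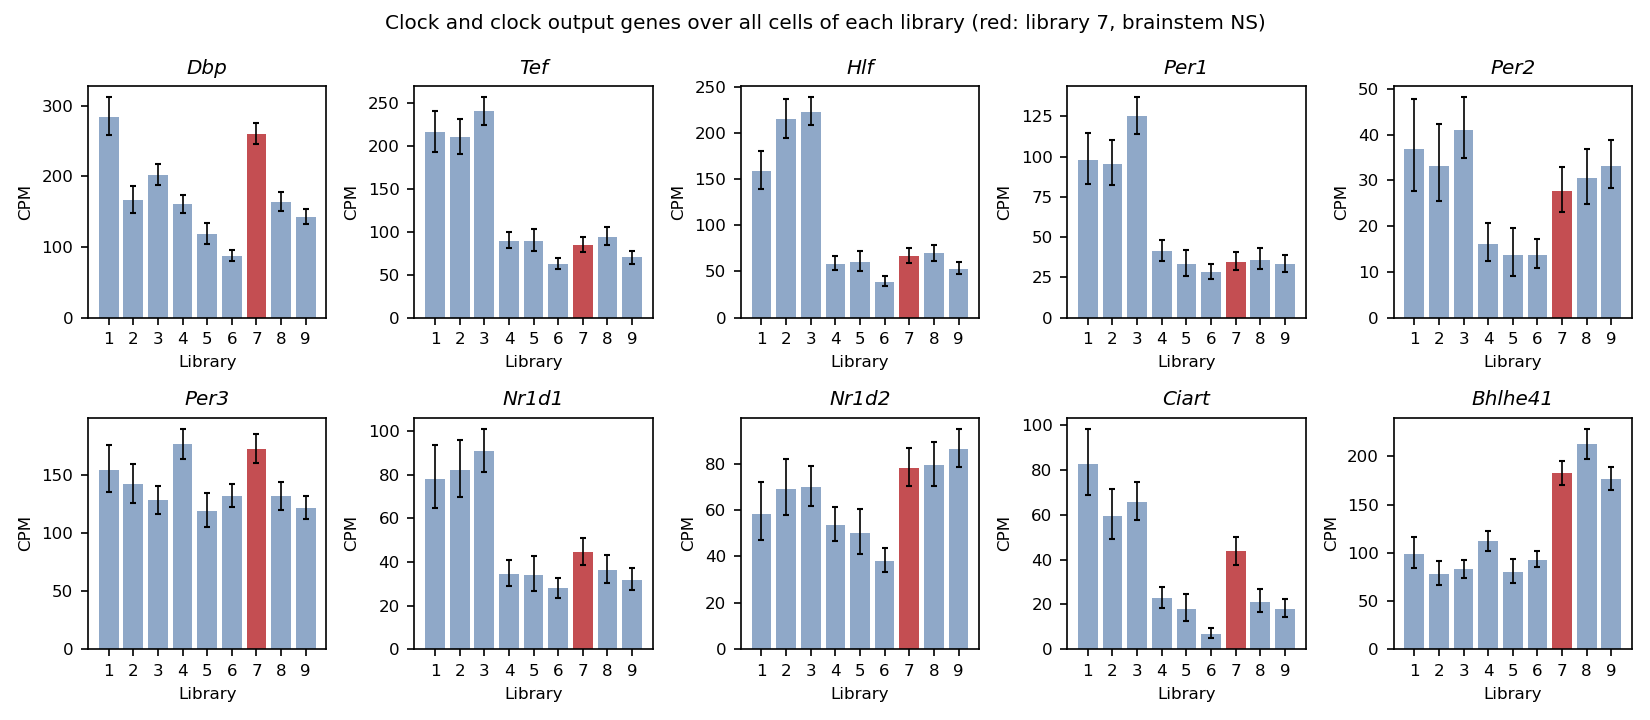
Level of each gene (CPM, summed over all cells) in libraries 1 to 9, with exact 95% Poisson intervals and library 7 (brainstem NS) in red. Tef, Hlf, Per1 and Nr1d1 stand high in libraries 1 to 3, and Bhlhe41 stands high in libraries 7 to 9. With all genes in the totals, as drawn here, Per3 varies least.

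A gene was called variable when its highest library was at least 2 times its lowest, after adding 10 CPM to each, and their intervals did not overlap. By this rule 9 of the 10 genes varied between libraries, all but Per3, against 61.6% of the 6606 genes of at least 20 CPM. Ciart had the widest ratio at 5.48, then Hlf at 4.76, and the median of the 10 was 2.84, against 2.30 over all 6606 genes. Of the 13 other clock genes that reached 20 CPM, 9 were called, and of the 5 below it Arntl, Npas2 and Nfil3, where 36.2% of genes with any UMI were. Arntl was at 28.2 CPM in library 1 and 1.57 CPM in library 7, and Rorb, also called, at 147 and 17.1 CPM in the same libraries. Leaving the hormone, hemoglobin and mitochondrial genes out of the totals raised levels by 0.62 to 0.75 on the log2 scale in libraries 4 to 6 and by 0.11 to 0.27 in the others, and Per2 (ratio 1.75) and Nr1d2 (1.55) were then not called. With size factors in place of totals, Per2 (1.83), Nr1d1 (1.83) and Nr1d2 (1.78) were not called. Without libraries 4 to 6 the genes not called were Dbp (1.92), Per2 (1.36), Nr1d2 (1.41) and Per3, and leaving out single libraries lost Per2 without library 3 (1.98) and Nr1d2 without library 6 (1.61) or library 9 (1.86).

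In the shares of cells, which follow depth, the order of the libraries changed with thinning. Dbp was found in 14.3% of the cells of library 1 and 22.6% of those of library 7, but after thinning each cell to 500 UMIs and leaving out shallower cells the shares were 13.3% of 840 cells and 11.9% of 3705 cells. Tef, the factor that shared the pattern of Hlf, went from 11.2% in library 1 and 23.8% in library 3 to 12.4% and 10.3%. Thinned shares kept Tef, Hlf and Per1 higher in each of libraries 1 to 3 than in libraries 4 to 9, with Hlf at 7.62% to 11.5% against 1.69% to 3.16%.

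The mix of cells differed between libraries, and the UMIs of the 10 genes came from different cells in each. Cells were grouped without the clock genes into classes named by markers, and a class such as "neuron-like" says only that these markers were high. In library 3, neuron-like cells gave 62.2% of all UMIs but 86.8% of those of Hlf, 84.1% of Per1 and 80.4% of Tef. In library 6, pituitary endocrine-like cells gave 70.0% of all UMIs and 28.3% of those of Dbp, whereas EPC-like (ependymocyte-like) cells gave 8.16% of all UMIs and 35.0% of Dbp. In library 7, astrocyte-like cells gave 6.11% of UMIs and 22.1% of Per1, endothelial-like cells 22.0% and 48.97% of Ciart, and microglia-like cells 21.1% and 49.6% of Bhlhe41. The part of the cell mix in the levels of the libraries was not tested.

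In library 7, the 1999 listed cells carry published cell types, and 1810 of them (90.5%) fell in a class of the same name here. For 10 of the 11 types all or all but 1 of the markers were higher in the type than in the other listed cells. The 43 cells listed as oligodendrocytes did not have that profile: Cldn11 was at 727 CPM, but Mbp gave 1 UMI, Mag, Mobp, Ermn and Cnp gave 0, and 38 of the 43 fell in the fibroblast or leptomeningeal-like class. They are called the cells listed as oligodendrocytes below. Both neuron types were checked against 1 shared list of 13 markers, which holds Slc17a6, Slc17a7, Gad1 and Gad2. All 13 were higher in the cells listed as glutamatergic, so the check does not tell glutamatergic from other neurons. A gene was called higher or lower in a type when its level was at least 2 times, or at most 0.5 times, that in the other listed cells after adding 10 CPM, with intervals apart. This gave 8 higher and 14 lower calls among 110 pairs of gene and type, or 7.27% and 12.7%. Over all genes of at least 20 CPM, 6.66% of the pairs were called higher and 13.7% lower. The counts of both moved with the settings: with the mean over cells 27.3% of the pairs of the 10 genes and 31.8% of all pairs were called lower. With cells of at least 1000 UMIs 3.64% and 6.10% were called higher, and with clusters of library 7 in place of the list 12.2% and 7.63%.

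Astrocytes, the glia that clear transmitter and contact vessels, held 4 of the higher calls, with 188 cells and a median of 771 UMIs per cell. Per1 was at 118 CPM (20 UMIs, interval 71.9 to 182) against 26.5 CPM in the other listed cells, a ratio of 3.502. Per3 was at 371 CPM against 168 CPM, Nr1d1 at 112 against 45.7 CPM and Per2 at 70.6 CPM (12 UMIs) against 24.5 CPM. These 4 of 10 compare with 8.53% of 6146 genes called higher in astrocytes, and the median ratio was 1.86 over the 10 genes and 0.789 over all genes. Dbp, at 506 CPM against 257 CPM, missed the call with a ratio of 1.93. The calls of Per1, Per2 and Nr1d1 rest on 12 to 20 UMIs, and that of Per3 on 63. Among the 52 astrocytes of at least 1000 UMIs none of the 4 was called. Per1 fell to 5 UMIs with a ratio of 2.13, and Nr1d1 to 3 UMIs with a ratio of 0.843. Per2 fell to 4 UMIs and Per3 to 20.

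Pericytes, the mural cells of capillaries, gave the 2 higher calls among the PAR bZIP factors. Dbp was at 615 CPM (interval 495 to 755) in 168 pericytes against 252 CPM in the other listed cells, and Hlf at 183 CPM against 62.3 CPM, where 5.42% of genes were called higher. For Dbp the pericytes, astrocytes and EPCs came in that order at 615, 506 and 464 CPM with overlapping intervals, then VSMCA (arterial smooth muscle) at 354 and endothelial cells at 244 CPM. The Dbp call, though not that of Hlf, was lost among the 35 pericytes of at least 1000 UMIs, with a ratio of 1.46. Dbp was found in 41.1% of pericytes (interval 33.5% to 48.9%) and 8.01% of microglia, types with medians of 726.5 and 796 UMIs per cell, and after thinning in 27.6% and 4.38%.

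Endothelial cells, which line the vessels, were called higher for Ciart alone, at 94.1 CPM (61 UMIs, interval 72.0 to 121) against 30.0 CPM elsewhere, where 12.2% of genes were called higher. The astrocytes were close, with 88.2 CPM, and the interval overlapped. Pericytes, which lie on the same vessels, had 2 UMIs of Ciart, or 13.5 CPM. In the other direction, Bhlhe41 was at 29.3 CPM in endothelial cells against 245 CPM elsewhere, a lower call that 16.2% of genes shared.

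Microglia, the resident macrophages of the brain, held 1 higher and 6 lower calls. Bhlhe41 was at 449 CPM (228 UMIs, interval 393 to 512) against 105 CPM in the other listed cells, a ratio of 3.99 where 9.99% of genes were called higher. It was found in 29.5% of the 549 microglia and 2.97% of the 573 endothelial cells, whose median depths were 796 and 910 UMIs, and in 19.6% and 1.27% after thinning. Free RNA was not estimated, and a share as low as that of the endothelial cells cannot be told apart from it. Dbp (94.6 against 328 CPM), Hlf (9.86 against 87.8 CPM), Per2 (7.89 against 33.9 CPM), Nr1d1 (5.91 against 63.7 CPM), Nr1d2 (25.6 against 90.7 CPM) and Ciart (5.91 against 60.9 CPM) were called lower. That is 6 of 10 genes where 24.4% of all genes were called lower, and the median ratio was 0.381 over the 10 genes and 0.816 over all. Nr1d1 and Ciart rested on 3 UMIs each, Per2 on 4 and Hlf on 5. The shares of microglia with Nr1d1 and Ciart, 0.546% each, are the lowest among the types with any UMI of them. The Per2 call was lost to overlapping intervals with cells of at least 1000 UMIs (0.418). That of Nr1d2 was lost with clusters in place of the list (0.518). Per3 was at 154 CPM in microglia, with a ratio of 0.809 and no call.

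The other types gave 7 lower calls and no higher call. In the 11 comparisons of type and direction in which none of the 10 genes was called, including both for EPCs, 0.277% to 17.7% of genes were. Glutamatergic neurons held 1 UMI of Per3 in 55 cells, or 19.1 CPM against 188 CPM, where 9.58% of genes were called lower. This call was lost to overlapping intervals with cells of at least 1000 UMIs (ratio 0.264). The 18 cells listed as other neurons held 8 UMIs of Per3, or 272 CPM. Macrophages held no UMI of Hlf in 67 cells, with an interval of up to 44.4 CPM, against 72.9 CPM, where 8.25% of genes were lower. Bhlhe41 was lower in VSMCA at 87.6 CPM and in the cells listed as oligodendrocytes at 57.7 CPM, with backgrounds of 23.3% and 8.46%. The VSMCA call was lost both with cells of at least 1000 UMIs (ratio 0.554) and with clusters in place of the list (0.503). The call in the cells listed as oligodendrocytes was lost to overlapping intervals with cells of at least 1000 UMIs (0.433). The 19 hemoglobin-expressing vascular cells (HbVC) were lower for Dbp, Per3 and Bhlhe41, where 12.8% of genes were. All 3 HbVC calls were lost with totals that leave hemoglobin out, and the ratio of Dbp was then 1.02.

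**Figure D3:**
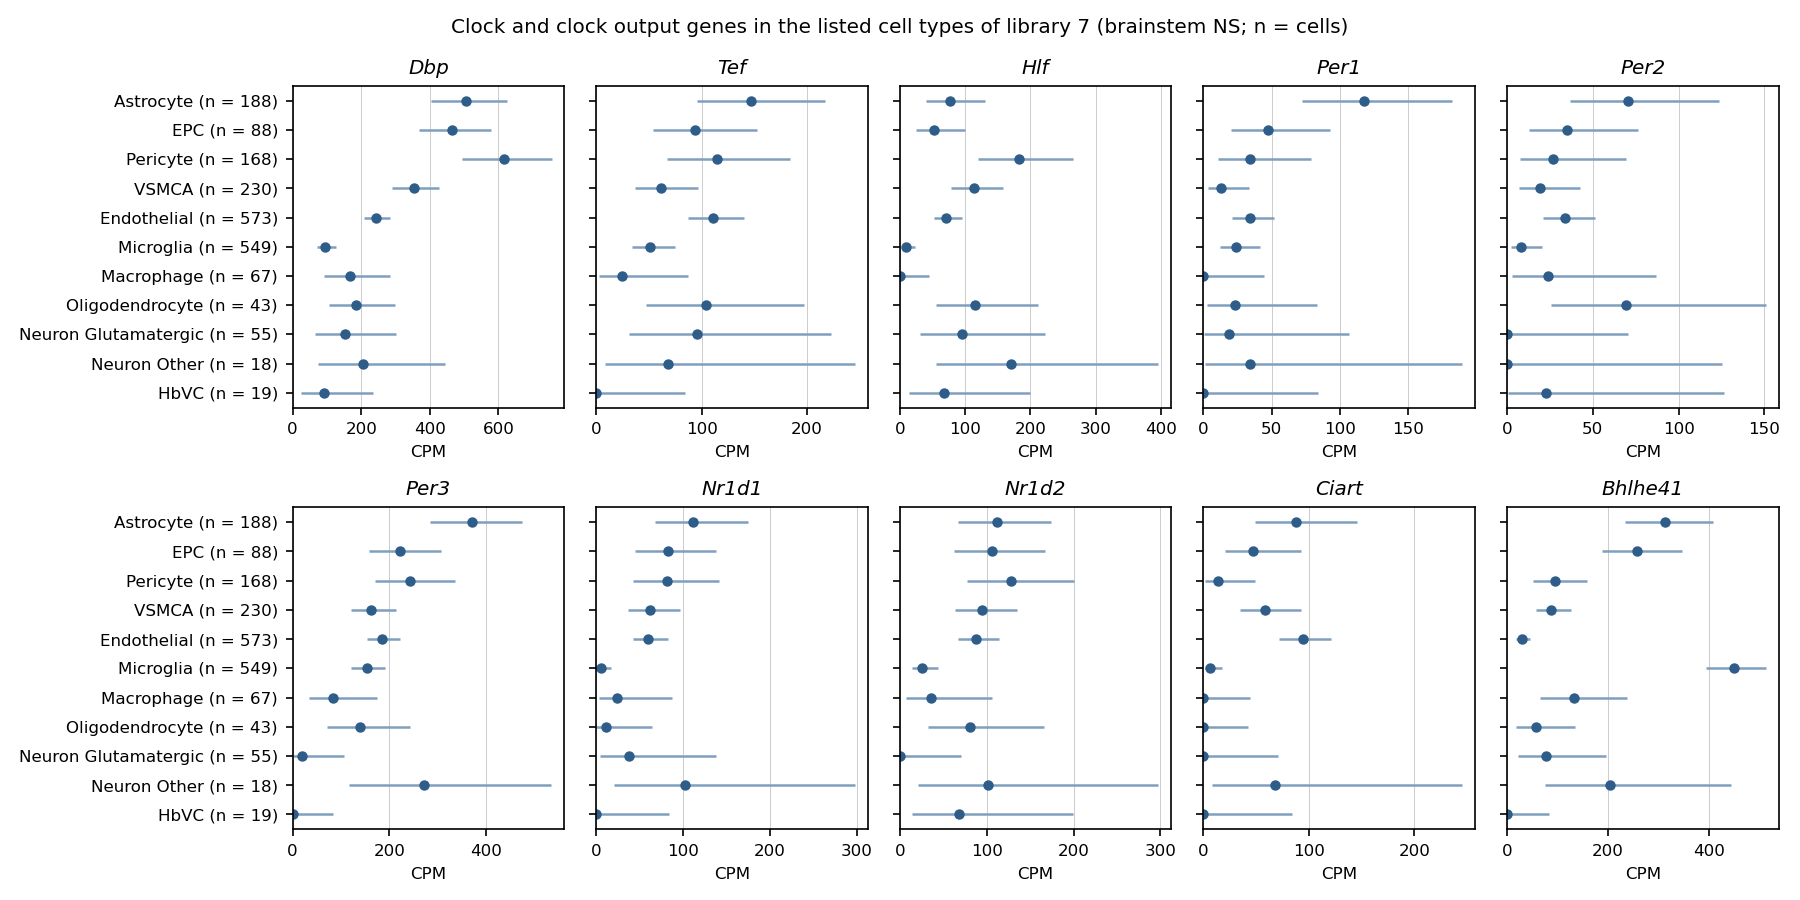
Level of each gene (CPM) in the 11 listed cell types of library 7, with exact 95% Poisson intervals and the number of cells beside each type. Bhlhe41 is highest in microglia at 449 CPM, while Dbp is highest in pericytes at 615 CPM and Per1 in astrocytes at 118 CPM.

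Of the 18 other clock genes in the same cells, Cry2 and Rorb were called higher in astrocytes (58.8 and 147 CPM) and Clock lower, with no UMI in 188 cells. Cry2, Rora, Rorb and Bhlhe40, the paralog of Bhlhe41, were lower in microglia, with Bhlhe40 at no UMI in 549 cells. Bhlhe41 and Bhlhe40 thus lay in opposite directions in the same cells. Over all 11 types these 18 genes gave 4 higher and 7 lower calls among 198 pairs, beside the 6.66% and 13.7% of pairs over all genes of at least 20 CPM, a level that 11 of the 18 reached.

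Across libraries, the differences between classes could be read 8 times over, in every library with 50 cells of both. Bhlhe41 and Per3 were higher in astrocyte-like than in neuron-like cells in 8 of 8 libraries, with intervals apart in all 8, as for 3.47% of 6606 genes. Per3 ranged from 188 to 372 CPM in astrocyte-like cells and from 44.8 to 109 CPM in neuron-like cells of those libraries. Dbp was also higher in astrocyte-like cells in 8 of 8, with intervals apart in 5, where 12.2% of genes were higher in all 8. In the opposite direction Tef was lower in astrocyte-like than in neuron-like cells in 7 of 8 libraries and apart in 3, and was lower in microglia-like than in neuron-like cells in 8 of 8, as for 31.4% of genes.

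Bhlhe41 was higher in astrocyte-like and in microglia-like cells than in endothelial-like cells in 8 of 8 libraries each, with intervals apart in all 8, as for 2.32% and 1.67% of genes. Its level in microglia-like cells was 203, 158 and 200.05 CPM in libraries 1 to 3, 138 and 156 CPM in libraries 4 and 5, and 431, 513 and 358 CPM in libraries 7 to 9. It was also higher in microglia-like than in neuron-like cells in 8 of 8, as for 13.2% of genes. In endothelial-like cells it ran from 10.6 to 53.9 CPM. Dbp, Tef, Per3 and Nr1d1 were higher in astrocyte-like than in microglia-like cells in 8 of 8 libraries, as for 13.2% of genes, with intervals apart in 6, 3, 5 and 3 of them.

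Between libraries, the call of variable genes was repeated within each of 7 classes. Dbp was called in 6 of the 7, all but the microglia-like class, and no other of the 10 genes was called in more than 4. The share of all genes called in as many classes was not computed, so this count describes the 10 genes only. In astrocyte-like cells Dbp was at 467, 201 and 364 CPM in libraries 1 to 3, at 406 and 168 CPM in libraries 4 and 5, and at 486, 157 and 167 CPM in libraries 7 to 9, while library 6 had too few cells. Libraries 1, 3, 4 and 7 lay above libraries 2, 5, 8 and 9 with no overlap of intervals. Dbp, Per1, Per2, Nr1d2 and Bhlhe41 made 5 of 10 genes variable in this class, where 26.7% of 5738 genes were. The astrocyte-like cells of libraries 1 to 3 came mostly from a cluster led by Htra1 and Cldn10. Those of the other libraries came mostly from one led by Agt and Itih3. In the former lay 37 of 157 cells of library 4 and 29 of 230 of library 5. Within the cluster led by Agt and Itih3 alone, Dbp was at 386 and 169 CPM in libraries 4 and 5. Their intervals, 260 to 551 and 94.5 to 278 CPM, overlapped there. In libraries 7 to 9 of this cluster Dbp was at 474, 160.4 and 169.6 CPM, with library 7 apart from libraries 8 and 9.

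In endothelial-like cells Dbp was at 255 CPM in libraries 1 and 7, at 147 CPM in library 4 and at 12.6 to 130 CPM in the other 6, with library 6 resting on 1 UMI in 78 cells. This class included 178 cells of a cluster led by Plvap and Fabp4, 57.3% of them from 1 library. Within its single clusters Dbp was not read. In pericyte-like cells it was at 303, 209 and 151 CPM in libraries 1 to 3 and at 502, 190 and 174 CPM in libraries 7 to 9, where libraries 1 to 3 overlapped and library 7 lay above libraries 8 and 9 with intervals apart. In VSMCA-like cells it ran from 231 CPM in library 9 to 521 CPM in library 1. In EPC-like cells, the ciliated cells that line the ventricles, it was at 484, 446 and 375 CPM in libraries 4 to 6 and at 416, 327 and 228 CPM in libraries 7 to 9. The background of variable genes was 20.7% in endothelial-like, 9.72% in pericyte-like, 8.56% in VSMCA-like and 16.9% in EPC-like cells, and the members called there beside Dbp were Ciart in endothelial-like, Per3 in pericyte-like and Bhlhe41 in VSMCA-like cells. Several of these calls rested on 1 library: Dbp was not called in pericyte-like cells without library 7 (ratio 1.94), in VSMCA-like cells without library 1 (1.71) or in EPC-like cells without library 4 (1.92) or library 9 (1.47), and in astrocyte-like cells Per1 and Nr1d2 were not called without library 7 (1.63 and 1.72), nor Per1 without library 8 (1.95). Without library 7 the calls of Ciart in endothelial-like cells (8.30) and of Per3 in pericyte-like cells (2.01) were also lost to overlapping intervals, as was that of Bhlhe41 in VSMCA-like cells without library 3 (2.27) or library 8 (5.17), and Per3 in pericyte-like cells was lost without library 3 (1.86). With cells of at least 1000 UMIs, Dbp (1.70) and Bhlhe41 (1.22) in VSMCA-like cells and Per3 in pericyte-like cells (1.41) were not called. Nor, in astrocyte-like cells, were Per1 (1.85), Per2 (1.99), Nr1d2 (2.15) and Bhlhe41 (2.07). Dbp in EPC-like cells was lost with hormone, hemoglobin and mitochondrial genes left out of the totals (1.98). With the mean over cells, Dbp in VSMCA-like cells (2.24) and, in astrocyte-like cells, Per1 (2.24) and Nr1d2 (2.40) were lost.

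The level of Dbp in microglia-like cells was 19.5 to 188 CPM over 8 libraries, and its highest and lowest intervals overlapped. Of the 7 members that reached 20 CPM in this class, Tef, Nr1d2 and Bhlhe41 varied, where 20.7% of such genes did. Ciart, below that level at 1.76 to 40.5 CPM, was called too, where 8.85% of genes with any UMI were. None of the 4 was called with cells of at least 1000 UMIs, where the ratio of Bhlhe41 was 1.501, and single libraries decided Ciart (3.57 without library 1), Tef (2.19 without library 4) and Nr1d2 (9.00 without library 5). In neuron-like cells 9 of the 10 genes varied, all but Nr1d2, where 45.5% of genes did. Hlf had the widest ratio, 10.4, from 281, 350.0 and 311 CPM in libraries 1 to 3 to 24.6 CPM in library 9, and Tef went from 313, 281 and 311 CPM in libraries 1 to 3 to 94.9 CPM in library 7. Libraries 1 to 3 held mostly neurons of a cluster led by Slc17a7 and Nrgn (552, 815 and 1029 cells) and libraries 4 to 9 mostly those of another led by Gad1 and Gad2, so largely different neurons were compared. Within the cluster led by Slc17a7 and Nrgn, Dbp was at 206, 162 and 180 CPM in libraries 1 to 3, with overlapping intervals. Within that led by Gad1 and Gad2 it was at 68.6 to 107 CPM in libraries 4 to 9, also with overlapping intervals. In all neuron-like cells together, Per3 was not called without library 2 (1.87) or library 8 (1.69), nor Bhlhe41 without library 9 (2.06).

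**Figure D4:**
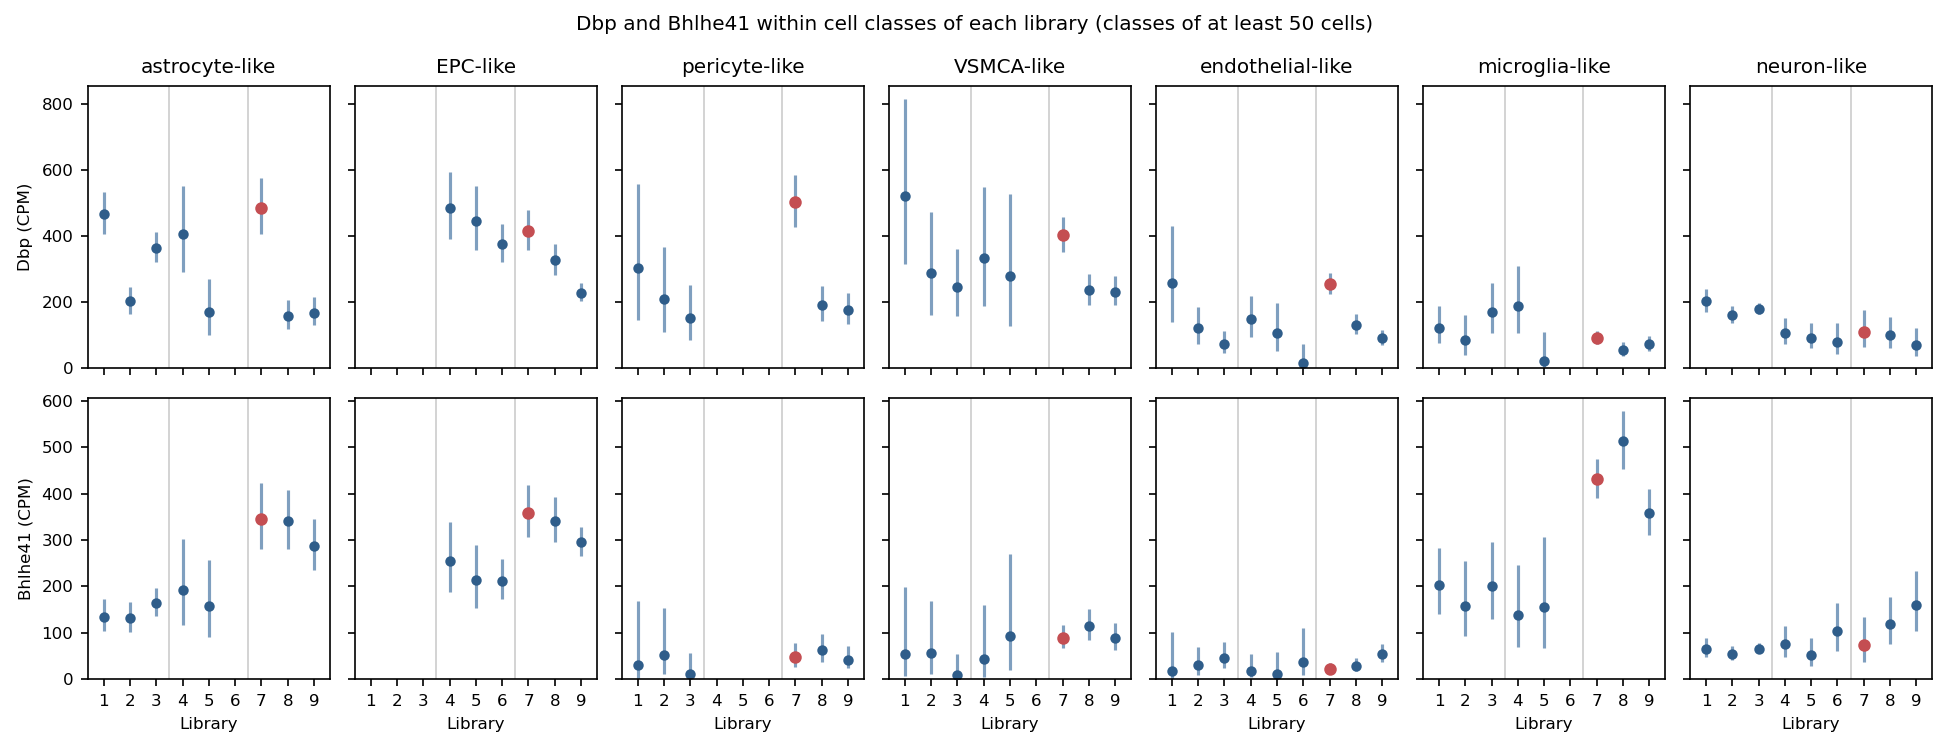
Dbp (top) and Bhlhe41 (bottom) within 7 cell classes, in CPM with exact 95% Poisson intervals, for libraries with at least 50 cells of the class. Vertical lines part the libraries by code stem and library 7 is red. Dbp in astrocyte-like cells is at 486 CPM in library 7 and at 157 and 167 CPM in libraries 8 and 9.

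Within each set of 3 libraries with a shared code stem, Dbp was highest in library 1, 4 or 7, with intervals apart from both others in all 3 sets. Of 6606 genes, 3 had this pattern (0.0454%), Dbp, the ribosomal protein gene Rpl13a and Tmem176b, and this comparison was chosen after the values had been seen. The levels of Dbp in these libraries were 1.71, 1.37 and 1.59 times those of libraries 2, 5 and 8 and 1.40, 1.84 and 1.82 times those of libraries 3, 6 and 9. Ciart and Per3 were also highest in libraries 1, 4 and 7, as for 4.41% of genes, with intervals apart in 1 and 2 of the sets. The 7 other genes did not share this order in all 3 sets. For Dbp the count fell from 3 sets to 2 with cells of at least 1000 UMIs, with the mean over cells and without the 5% of cells with the highest UMI totals, and stayed at 3 with either change of the totals.

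Within classes Dbp kept this order with 1 exception. These values split the same UMIs of the same libraries for which Dbp was picked, so they describe the order and are no separate support for it, and nothing is read from the shares of genes beside them. Dbp was higher in library 7 than in library 8 in all 10 classes, as for 0.318% of genes, and than in library 9 in all 10, as for 0.424%, with intervals apart in 5 of 10 each time, as for 0.182% and 0.439%. It was higher in library 4 than in library 5 in all 10 classes, as for 0.136% of genes, with intervals apart in 2, as for 1.2%. It was higher in library 1 than in library 2 in all 6 classes, as for 1.73%, with intervals apart in 1, as for 3.22%. It was higher in library 4 than in library 6 in all 5 classes, as for 8.08%, with intervals apart in 3, as for 0.333%. Against library 3, library 1 was higher in 5 of 6 classes, with intervals apart in 1, as for 4.19% of genes. Ciart in endothelial-like cells was at 97.2 CPM (95 UMIs) in library 7 and at 31.7 and 35.4 CPM (19 and 23 UMIs) in libraries 8 and 9, with intervals apart. Bhlhe41 had no such order, with 431, 513 and 358 CPM in the microglia-like cells of the same libraries. Library 7 alone has a known region and sleep group, so these orders carry no statement on sleep.

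Levels were compared over 68 groups of class and library, from 9 libraries, by Pearson's r of log2(CPM + 10). No test was made, because the groups of a library share its depth and cells. The genes outside the 10 and the 18 other clock genes whose levels followed each of the 10 most closely are given as a description. Only genes that reached 50 CPM in at least 1 group were eligible, and how closely the 18 followed is not given. For Dbp these were Dtymk, Hspa2 and Dmd (r = 0.699 to 0.679), for Tef Tcf25, Pkm and Kif1b (0.788 to 0.785), and for Hlf Gna11, Dcaf6 and Rab12 (0.761 to 0.698). For the period genes they were Kif1b, Gapdh and Prnp with Per1 (0.719 to 0.686), Trove2, Trib2 and Ift57 with Per2 (0.657 to 0.638), and Malat1, Son and Ktn1 with Per3 (0.735 to 0.723). Nr1d1 went with Prosc, Ank and Ptges2 (0.724 to 0.6997), Nr1d2 with Csnk1a1, l7Rn6 and Sf1 (0.662 to 0.656), Ciart with Rusc2, Pcdh1 and Slc48a1 (0.620 to 0.603) and Bhlhe41 with Cd27, Fgd4 and Sall1 (0.721 to 0.670). Among the 10 themselves, Tef and Per1 were nearest each other (r = 0.699), as were Dbp and Per3 (0.679), and Bhlhe41 was least like any other, with Per3 nearest at r = 0.413.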

How the data were processed

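Single-cell RNA-seq counts (10x Genomics v2 chemistry) were analysed for 9 pooled brain libraries. The authors deposited a table of raw UMI counts per gene and cell, made, per the submitters' notes, with Cell Ranger 2.2.0 on GRCm38, and the table used here holds no columns of the authors' own comparisons. Cell Ranger counts reads on the sense strand.

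Library 7 was identified by a published barcode list, the 8 others map to no label, and with 1 library per group no p-value was computed. Counts were summed over cells and scaled to CPM, with exact 95% Poisson intervals for levels and Clopper-Pearson intervals for shares. These cover counting error only. A difference was called at 2-fold after adding 10 CPM with intervals apart, and background shares used genes of at least 20 CPM. Classes came from Leiden clustering without the clock genes (2000 variable genes, 13 principal components, 20 neighbours, resolution 1), were named by markers and compared where a library held 50 cells. No doublet caller was run, and an alternative left out the 5% of cells with the highest UMI totals. Shares were also computed after thinning cells to 500 UMIs. By the rule for named genes these were the 10 members, 18 other clock genes and the 3 genes outside both lists most like each member. Markers, genes leading a cluster, the gene overlapping Per3 and the genes sharing the order of Dbp are named outside it, the last after their values were seen. The members and lists were chosen with earlier results of these data known. The alternatives were other totals, size factors, depth minimums, cluster settings and single libraries left out. The code was tested on simulated data. Per2 has no promoter in the RefSeq table. The value of 1 of the oligodendrocyte markers checked is not reported here. Clustering used leidenalg 0.10.2 with scikit-learn 1.9.0, intervals scipy 1.17.1 and tables pandas 2.3.3 under Python 3.11.15.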

Additional observations from a re-analysis of the deposited data

How the results depend on the processing

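No paired analysis was possible because each group is 1 library. Between 6 and 9 of the 10 genes were called variable between libraries under the alternatives (9 as reported), 8 to 9 when single libraries were left out. Calls within classes numbered 18 to 30 (25 as reported), 20 to 27 when single libraries were left out. Dbp was called in 5 to 7 classes in both sets of alternatives (6 as reported). As reported, 61.6% of all genes were called between libraries and 8.56% to 45.5% within the 7 classes. These shares were not recomputed under the alternatives, so the counts are not set against all genes there. For the cell types of library 7, with cells of at least 1000 UMIs the higher calls numbered 4 in place of 8 (3.64% of pairs, against 6.10% over all genes). Nr1d1 in astrocytes then reversed to a ratio of 0.843. The higher calls numbered 9 with the mean over cells (8.18% of pairs, against 5.29%) and 11 with clusters of library 7 in place of the list (12.2% against 7.63%). The lower calls, 14 as reported, numbered 30 with the mean over cells (27.3% of pairs, against 31.8% over all genes) and 24 with clusters of library 7 in place of the list (26.7% against 28.4%). With totals that leave out mitochondrial, hemoglobin and pituitary hormone genes, Dbp in HbVC reversed to 1.02. The causes were not tested. Leaving out libraries, singly or libraries 4 to 6 together, was chosen after seeing the data.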
